A study of Mus musculus with 577 samples.

Results

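Transcripts of Izumo1r, Cd9 and Astl, genes whose products act at or are released through the surface of the egg at fertilization, were examined in oocytes, granulosa cells and mouse embryonic stem cells (mESCs). The 3 genes were taken by symbol from every gene count table and were found in all of them, as 3 of 22060 protein-coding genes. Izumo1r (ENSMUSG00000031933) lies at chr9:14885814-14903949 on the minus strand of the mouse genome GRCm38. Cd9 (ENSMUSG00000030342) lies at chr6:125460266-125494791 on the minus strand. Astl (ENSMUSG00000050468) lies at chr2:127338639-127357651 on the plus strand.

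Izumo1r encodes JUNO, a protein of the folate receptor family that is anchored in the egg plasma membrane by a lipid and binds IZUMO1 on the sperm. Cd9 encodes a tetraspanin that the egg membrane needs for fusion with sperm and that many other cell types carry as well. Astl encodes ovastacin, a metalloprotease stored in cortical granules below the egg membrane, which is released after fusion and cleaves ZP2 of the surrounding zona pellucida. These products are made while the oocyte grows inside its follicle, long before it is ovulated.

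All ovaries came from 8-week-old female mice, for which the labels give no strain, genotype or treatment. Except for dissociated cells, cells were cut by laser capture microdissection (LCM) from 15-μm sections, so that a captured oocyte library holds RNA of a section of 1 oocyte, while dissociated oocytes were whole cells, and sections were fixed with alcohol unless formalin is named. RNA was amplified with a lysis step called DRaqL, in which a denaturing detergent is added and then quenched, or without it. Oocytes were labelled primary or secondary-antral by follicle stage, and granulosa cells were labelled neighboring or non-neighboring by their place relative to the oocyte. DRaqL-SC3-seq covered 14 primary and 30 secondary-antral oocytes, 57 granulosa cells (31 neighboring and 26 non-neighboring), and mESCs grown with 2 kinase inhibitors and LIF, of which 45 were freshly dissociated and 36 were cut from frozen cell blocks. SMART-Seq v4 covered 7 primary and 11 secondary-antral oocytes with 34 granulosa cells, and DRaqL-SMART-Seq v4 covered 6 and 9 oocytes with 39 granulosa cells. DRaqL-Protease-Smart-seq2 covered 5 primary and 7 secondary-antral oocytes with 24 granulosa cells from sections kept in formalin for 24 h. Granulosa cells alone were profiled by LCM-seq (37 cells) and DRaqL-Smart-seq2 (34 cells). Cells of the same mouse, in proestrus, were profiled after dissociation by Smart-seq2 (14 oocytes labelled grown, 35 granulosa cells) and after LCM by DRaqL-Smart-seq2 (8 secondary-antral oocytes, 70 granulosa cells). As the study describes it, dissociation was done in medium with dibutyryl-cAMP, an analog of cAMP. Further DRaqL-SC3-seq libraries held pairs of serial sections of 8 secondary-antral oocytes, 14 pools of about 10 granulosa cells and 7 bulk granulosa samples.

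Levels are reads per 1000000 reads of protein-coding genes (RPM) in libraries of 12748 to 17506401 such reads. The reads come from the 3′ ends of transcripts, so that gene length enters little, and differences are of means of log2 (RPM + 1). No label names the animal of a single cell, and a group of cells was therefore treated as 1 sample, described by its range, mean and SD over cells, without a test. The methods were applied, as the study describes it, to sections of a shared ovary, so that data sets need not differ in animal, and a direction seen in several of them is no replication over mice. Intervals for summed reads and for shares cover counting error only, because the reads carried no molecular identifiers.

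The sequences upstream of the start sites are shown because the 3 genes share an oocyte source while only Cd9 was read in every mESC. Promoters are those of RefSeq on GRCm38.p6, from 250 bases before to 50 bases after a start, matched for all 3 genes, with 2 starts for Astl. E-boxes (CANNTG, which reads the same on both strands) are the element bound by basic helix-loop-helix factors, among them the oocyte factor FIGLA, and are in capitals. The downstream start of Astl is preceded by chr2:127341386-127341629 on the plus strand:
Astl: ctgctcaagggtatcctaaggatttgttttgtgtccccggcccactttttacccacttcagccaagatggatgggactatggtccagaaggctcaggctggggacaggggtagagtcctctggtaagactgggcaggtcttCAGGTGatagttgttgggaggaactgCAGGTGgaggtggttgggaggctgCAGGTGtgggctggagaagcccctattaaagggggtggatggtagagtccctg
Upstream of Cd9, on the minus strand, lies chr6:125494792-125495010:
Cd9: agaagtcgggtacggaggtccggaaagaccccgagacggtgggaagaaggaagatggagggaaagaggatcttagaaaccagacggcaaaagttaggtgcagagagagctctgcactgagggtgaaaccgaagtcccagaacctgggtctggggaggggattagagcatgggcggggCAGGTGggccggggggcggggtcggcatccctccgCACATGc
The single E-box of the Izumo1r window lies in chr9:14903807-14903836 on the minus strand:
Izumo1r: ggcggctctccaCACCTGtagctcatagaa
The 3 E-boxes of Astl all read CAGGTG, the last of them 59 bases before its start. Those printed for Cd9 began 73 and 38 bases before its start, with another at 25 bases, and that of Izumo1r began 57 bases before. The stretch printed for Izumo1r lies inside longer annotated forms of its first exon, such as chr9:14903713-14903949. Those printed for Cd9 and Astl stop before an annotated exon. Among 32851 RefSeq promoters of the same length, 72.3% held at least 1 E-box and 17.6% held at least 3. CAGGTG on either strand, a search chosen after these matches were seen, was found at least 3 times in 0.365% of them. The upstream start of Astl had no E-box, and TAATTA or TAATTG, searched on both strands, was in none of the 4 windows and in 12.4% of all promoters.

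The level of each gene in every group was examined first (the plot of levels by group). Izumo1r and Astl were high in grown oocytes and at or near 0 in mESCs, whereas Cd9 was read in all 81 mESCs. In secondary-antral oocytes by DRaqL-SC3-seq, Izumo1r ranged from 13.9 to 656 RPM (median 320; mean 8.05 ± 1.13 on the log2 scale, SD, n = 30). Astl ranged from 299 to 1193 RPM (median 802; 9.41 ± 0.60). Cd9 ranged from 45.3 to 178 RPM (median 107.3; 6.66 ± 0.48). Astl was thus the highest of the 3 by median and Cd9 the lowest, with ranges that overlapped between genes.

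**Figure D1:**
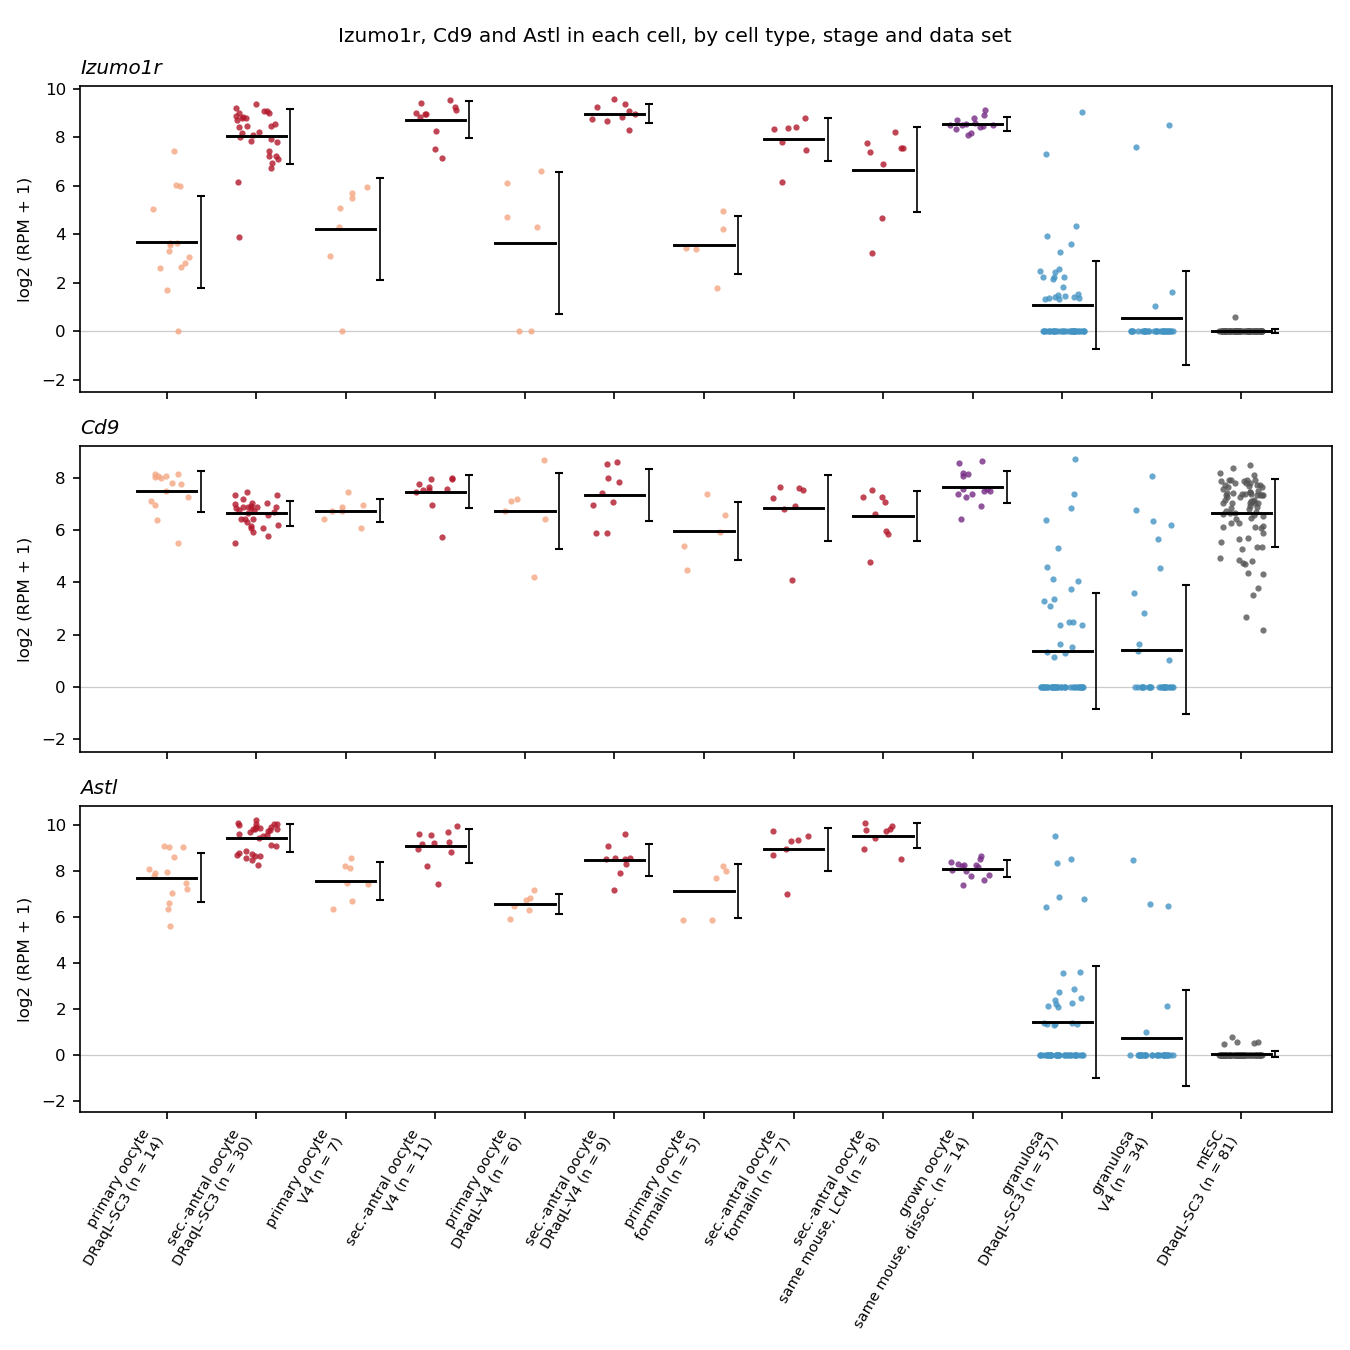
Level of Izumo1r, Cd9 and Astl in each library, as log2 (RPM + 1), by data set and group, with 1 point per library, a horizontal bar at the mean and a vertical bar of 1 SD on either side. Secondary-antral oocytes sit above the mean of granulosa cells for all 3 genes, and Cd9 alone is also high in mESCs, with means of 7.18 in fresh cells and 6.04 in cells from blocks, pooled in the plot.

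Ordered by mean log2 level, Izumo1r was highest in serial sections (median 653 RPM), followed by secondary-antral oocytes of DRaqL-SMART-Seq v4 (494 RPM) and SMART-Seq v4 (500 RPM), dissociated oocytes (361 RPM), and secondary-antral oocytes of DRaqL-SC3-seq (320 RPM) and formalin-fixed sections (323 RPM). The distances between neighbours in this order were smaller than the larger of their SDs over cells, so that the order among them is not resolved. Same-mouse captured oocytes followed at 177 RPM. All 4 sets of primary oocytes stood lower, between 9.72 and 32.8 RPM by median. Astl ran from 848 RPM in same-mouse captured oocytes down to 95.7 RPM in primary oocytes of DRaqL-SMART-Seq v4. The 7 sets of grown oocytes all stood above the 4 primary sets for Astl by mean log2 level, without a test. For Cd9 no such order by stage was seen: primary oocytes of DRaqL-SC3-seq (median 221 RPM) ranked next to dissociated oocytes (186 RPM), and fresh mESCs (164 RPM) stood among the oocyte sets.

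In the 81 mESCs, Izumo1r had 0 of 88899511 reads in fresh cells and 1 of 70436661 in cells from blocks, and Astl had 5 reads in 5 fresh cells. Cd9 had 14272 reads in the fresh cells (24.8 to 337 RPM) and 6683 reads in the cells from blocks (3.57 to 359 RPM). The mean of Cd9 was lower by 1.14 on the log2 scale in cells from blocks, and the ranges overlapped. Cd9 was thus read in both oocytes and pluripotent cells, while Izumo1r and Astl were not detectable beyond a few reads in the latter.

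The comparison of primary with secondary-antral oocytes addressed how the transcripts change as the follicle grows. Izumo1r was the gene of the 3 that differed most, and it was higher in secondary-antral oocytes in all 4 data sets. Astl was higher in all 4 as well, by a smaller amount. Cd9 was lower by DRaqL-SC3-seq and higher in the 3 other data sets. Izumo1r had been selected in the study on the DRaqL-SC3-seq oocytes, as a gene following their growth, so that its value there is a description. Cd9 and Astl had not been selected in this way.

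In primary oocytes by DRaqL-SC3-seq, Izumo1r ranged from 0 to 170 RPM (median 9.82), against 13.9 to 656 RPM (median 320) in secondary-antral oocytes. The stages overlapped: 4 of 14 primary oocytes reached the lowest secondary-antral one. The difference was 4.37 on the log2 scale (3.68 ± 1.91, n = 14; 8.05 ± 1.13, n = 30), and 1.28% of 8350 genes rose by more. By SMART-Seq v4 the levels were 0 to 60.5 RPM (median 32.8, n = 7) and 140 to 741 RPM (median 500, n = 11), a difference of 4.49. By DRaqL-SMART-Seq v4 they were 0 to 96.7 RPM (median 21.8, n = 6) and 316 to 755 RPM (median 494, n = 9), a difference of 5.35. The stages did not overlap in either data set. Of the primary oocytes of DRaqL-SMART-Seq v4, 2 of 6 had no read of Izumo1r. The 5 formalin-fixed primary oocytes had 2.43, 9.52, 9.72, 17.6 and 30.3 RPM of Izumo1r. The 7 secondary-antral ones had 70.2 to 447 RPM (median 323), a difference of 4.35, again without overlap.

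For Astl, primary oocytes by DRaqL-SC3-seq had 47.03 to 538 RPM (median 227) and secondary-antral oocytes had 299 to 1193 RPM (median 802). The difference was 1.72 (7.69 ± 1.06, n = 14; 9.41 ± 0.60, n = 30), and 4 primary oocytes reached the range of the later stage. By SMART-Seq v4 the medians were 175 RPM (79.9 to 373) and 592 RPM (172 to 991), a difference of 1.54 with overlap. By DRaqL-SMART-Seq v4 they were 95.7 RPM (57.8 to 140.3) and 366 RPM (141.0 to 778), a difference of 1.92 without overlap. The 5 formalin-fixed primary oocytes had 56.2, 56.6, 202, 253 and 294 RPM of Astl. The 7 secondary-antral ones had 127 to 840 RPM (median 623), a difference of 1.81 with overlap. Astl was thus detectable in every primary oocyte, unlike Izumo1r, and differed between stages by 1.54 to 1.92 on the log2 scale.

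For Cd9, primary oocytes by DRaqL-SC3-seq had 44.9 to 284 RPM (median 221) and secondary-antral oocytes had 45.3 to 178 RPM (median 107.3), a difference of -0.84. By SMART-Seq v4 the medians were 106.8 RPM (66.4 to 175) and 190 RPM (53.1 to 256), a difference of 0.73. By DRaqL-SMART-Seq v4 they were 122 RPM (17.6 to 413) and 171 RPM (58.5 to 389), a difference of 0.63. The 5 formalin-fixed primary oocytes had 21.6, 41.1, 59.9, 94.9 and 168 RPM of Cd9. The 7 secondary-antral ones had 15.9 to 199 RPM (median 151), a difference of 0.88. The stages overlapped in all 4 data sets, and the direction by DRaqL-SC3-seq was opposite to the others. That data set differs from the others in chemistry and in its cells, and which of these goes with the opposite direction was not tested.

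**Figure D2:**
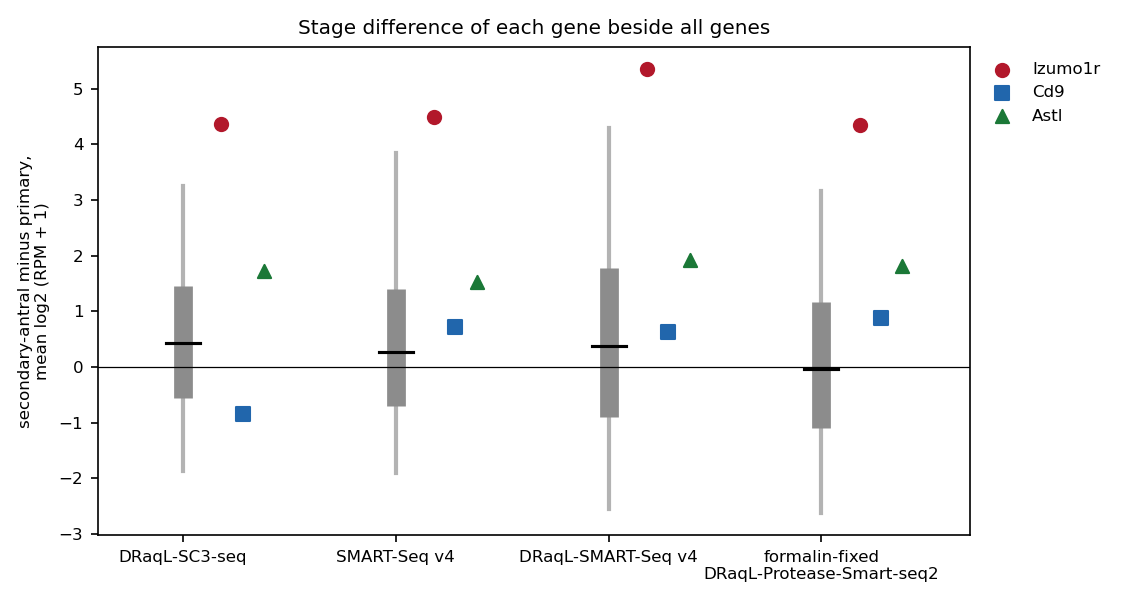
Secondary-antral minus primary difference in mean log2 (RPM + 1) for Izumo1r, Cd9 and Astl in 4 data sets, with 1 point per gene. The grey bars give all genes that passed the filter on the mean, thick from the 25th to the 75th percentile and thin from the 5th to the 95th, with a black tick at the median. Izumo1r lies between 4.35 and 5.35 and Astl between 1.54 and 1.92, while Cd9 lies on either side of 0.

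Among all genes with a mean log2 level of at least 4 in either stage, a difference past 1 was common. It was reached upward by 35.2%, 32.7%, 37.8% and 28.1% of genes by DRaqL-SC3-seq, SMART-Seq v4, DRaqL-SMART-Seq v4 and in formalin-fixed sections. In each of them 2 of the 3 genes, Izumo1r and Astl, passed 1 upward. None passed 1 downward, against 15.8%, 17.7%, 23.2% and 26.9% of all genes. Stages without overlap and with higher secondary-antral oocytes were found for 5.87%, 10.7% and 5.56% of genes by SMART-Seq v4, DRaqL-SMART-Seq v4 and in formalin-fixed sections, and for 1.15% by DRaqL-SC3-seq, where none of the 3 genes was among them. The median difference of all genes was 0.43, 0.28, 0.38 and -0.03.

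Several quantities moved with stage. Summed oocyte markers (12 genes, all in the tables, led by Zp2 in primary and by Gdf9 in secondary-antral oocytes of DRaqL-SC3-seq) had medians of 10350 RPM in primary and 36966 RPM in secondary-antral oocytes. Summed granulosa markers (10 genes, led by Inha) had medians of 468 and 130 RPM in these oocytes, against 6452 RPM in granulosa cells. They were also higher in primary oocytes by SMART-Seq v4 (571 and 389 RPM), by DRaqL-SMART-Seq v4 (368 and 222 RPM) and in formalin-fixed sections (930 and 570 RPM). Mitochondrial reads had medians of 1.83% and 1.11% by DRaqL-SC3-seq. The part of these in the differences was not tested. With oocytes high in granulosa markers left out, the directions stayed, and by SMART-Seq v4, with 2 primary and 7 secondary-antral oocytes left, Izumo1r differed by 6.10 and Astl by 2.52.

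The libraries had been sequenced in pools of several cells. By SMART-Seq v4 all 7 primary oocytes were in a pool with 1 secondary-antral oocyte, which had 140 RPM of Izumo1r, 125 RPM of Cd9 and 293 RPM of Astl. The Izumo1r level of that oocyte was above all 7 primary oocytes of its pool and below the 10 secondary-antral oocytes of the other pool. By DRaqL-SMART-Seq v4 the 6 primary and 9 secondary-antral oocytes were in separate pools, so that stage and pool cannot be told apart there. The 12 formalin-fixed oocytes shared a pool, and within it Izumo1r differed by 4.35 and Astl by 1.81.

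Spike-in RNA added to each lysate gave levels that do not depend on the other transcripts of the oocyte, but do depend on how much of it was in the section. On this scale all 3 genes were higher in secondary-antral oocytes in the 3 data sets with spike-in counts. By SMART-Seq v4 the median of Izumo1r was 0.531 reads per 1000 spike-in reads in primary and 37.4 in secondary-antral oocytes. Astl went from 3.38 to 41.8 and Cd9 from 1.28 to 10.8, ratios of 12.3 and 8.45. All protein-coding reads together had a ratio of 3.88. The ratios of Cd9 were 7.34 by DRaqL-SMART-Seq v4 and 9.82 in formalin-fixed sections, beside 10.6 and 3.84 for all protein-coding reads. A larger sectioned area of the oocyte and more RNA per area cannot be told apart in these values.

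Lists of genes of the same structures, which hold the 3 genes themselves, were then compared between stages. None of their counts in any data set is read as a result about a list, beside the shares of all genes past 1 given above. By DRaqL-SC3-seq these shares were 35.2% upward and 15.8% downward. Of the 8 genes of the egg surface, Izumo1r and Cd9 included, 7 passed the filter on the mean by DRaqL-SC3-seq, 2 passed 1 upward and none downward (median 0.66, against 0.43 for all genes). Those 2 were Izumo1r and Igsf8, a partner of CD9 and CD81 in the membrane, with a difference of 3.48 (medians 0.721 and 20.4 RPM). By SMART-Seq v4 1 gene of this list passed 1 upward and 1 downward (median 0.22). By DRaqL-SMART-Seq v4 the counts were 1 and 2 (median 0.20), and in formalin-fixed sections 1 and 1 (median -0.26). The gene past 1 upward was Izumo1r each time, so that Igsf8 was not among those past 1 upward there. Cd81, a tetraspanin close to CD9, was below the filter, with a difference of -1.76 (medians 10.1 and 2.28 RPM), while in the 3 other data sets, where it passed the filter, it differed by -3.69, -3.83 and -2.74. Of the 6 tetraspanins on the list, Cd9 and Cd151 passed the filter by DRaqL-SC3-seq, neither past 1, and Cd63, a tetraspanin of endosomes, was below it with a difference of -2.10. In the 3 other data sets, in the order above, 2, 2 and 1 of the tetraspanins passed 1 downward and none upward. Itgb1, an integrin subunit of the egg surface, differed by 0.72. No transcript of the sperm side was prominent: of 8 genes 7 were in the table, none passed the filter, and Izumo1, the partner of JUNO, had a median of 0 in both stages. Of the folate receptor relatives, Folr1 had medians of 1.32 and 0.637 RPM and Folr2 had 0, so that Izumo1r was the one member of its family that passed the filter.

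Of 11 cortical granule genes, Astl included, 4 passed 1 upward and 2 downward by DRaqL-SC3-seq (median 0.45), shares close to those of all genes. By SMART-Seq v4 3 passed 1 upward and 4 downward (median -0.42), by DRaqL-SMART-Seq v4 3 and 2 (median -0.20), and in formalin-fixed sections 4 and 2 of 10 (median 0.42). Fetub, which encodes fetuin-B, the circulating inhibitor of ovastacin, differed by 1.78 (medians 9.22 and 48.8 RPM). Nsf, a fusion ATPase that recycles SNARE proteins, differed by 1.41, and Rab27a, a GTPase of secretory granules, by 1.35. Stx4a, a syntaxin of the plasma membrane, differed by -1.33. Of 8 egg activation genes 3 passed 1 upward and 3 downward by DRaqL-SC3-seq (median 0.66). By both SMART-Seq v4 methods 4 passed 1 upward and 1 downward (medians 1.01 and 1.92), and in formalin-fixed sections 3 and 2 (median -0.09). Past 1 upward were 32.7% and 37.8% of all genes by SMART-Seq v4 without and with DRaqL, and 17.7% and 23.2% downward. By DRaqL-SC3-seq Orai1, a calcium channel of the plasma membrane, differed by 4.00 and Wee2, an oocyte kinase that keeps CDK1 inactive, by 2.96. Itpr1, the receptor that releases calcium from stores, differed by -2.00 and Stim1, the store sensor that opens ORAI1, by -1.88. The zona pellucida genes differed by 1.02 (Zp3), 0.87 (Zp1) and -0.64 (Zp2), so that Astl and its substrate Zp2 differed in opposite directions; Zp2 was lower by 0.69 and 0.42 by the SMART-Seq methods and higher by 0.30 in formalin-fixed sections.

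The genes most like each of the 3 were taken by Pearson r of log2 (RPM + 1) over the 44 DRaqL-SC3-seq oocytes, among 7219 genes with a mean of at least 4. The points share the stage difference and the total of each library. For Izumo1r these were Bcl2l10 (r = 0.94), an oocyte member of the BCL2 family, Mki67 (0.93), which marks proliferating somatic cells, Otub2 (0.92), Bcl7c (0.91) and Cnpy4 (0.91). Bcl2l10 had an r of 0.85 within the 30 secondary-antral oocytes, 0.85 over 33 SMART-Seq v4 oocytes with or without DRaqL and 0.95 over 12 formalin-fixed oocytes, but 0.25 over 14 dissociated oocytes. For Astl they were Zp1 (0.92), Zp3 (0.89), Miox (0.87), Gm13247 (0.86) and Tle6 (0.85), a subunit of the subcortical maternal complex. The r of Astl with Zp1 was 0.88 within the 30 secondary-antral oocytes, 0.84 within the 14 primary oocytes, 0.91 over the SMART-Seq v4 oocytes, 0.76 over formalin-fixed oocytes and 0.84 over dissociated oocytes. For Cd9 the leading genes were Cyfip1 (0.68), Atp6v1g1 (0.67), Rmdn3 (0.67), Dstn (0.67) and Txnl4a (0.67). The r of Cd9 with Cyfip1 was -0.22 over SMART-Seq v4 oocytes and -0.85 over formalin-fixed oocytes. Its r with Rmdn3 was 0.36 within the secondary-antral oocytes, 0.35 over SMART-Seq v4 oocytes, 0.43 over formalin-fixed oocytes and 0.03 over dissociated oocytes. The median r of all 7219 genes with Cd9 was 0.04, 0.02, 0.38 and -0.11 over these sets, so that the value over formalin-fixed oocytes was near that of any gene. The r of Astl with Zp3 was 0.75, 0.84, 0.85 and 0.72 over the same sets, beside medians of all genes with Astl of 0.13, 0.17, 0.32 and -0.04. The 30 secondary-antral and 14 primary oocytes are among the 44 over which the genes were chosen, so that r within them depends on that choice. Outside the 44, the SMART-Seq v4 and formalin-fixed sets hold both stages, so that r over them shares the stage difference as well. Over these sets Astl followed Zp1 and Zp3, and Izumo1r followed Bcl2l10. Over the dissociated oocytes, all labelled grown, Astl followed Zp1 (0.84) and Zp3 (0.72), while the r of Izumo1r with Bcl2l10 was 0.25.

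Izumo1r and Astl were both higher at the later stage, yet among secondary-antral oocytes by DRaqL-SC3-seq they ran opposite. Over the 44 DRaqL-SC3-seq oocytes the r between them was 0.51, but over the 30 secondary-antral oocytes it was -0.53 (Spearman's rho -0.68), and -0.72 without the 2 oocytes farthest from the median of Izumo1r (n = 28). Over the 14 primary oocytes it was -0.03. Within the 30 oocytes Izumo1r also ran opposite to Zp1 (r = -0.48), Zp2 (-0.56) and Zp3 (-0.55), while it ran with the growth factor genes Bmp15 (0.64) and Gdf9 (0.49). Its r with summed granulosa markers was -0.57 and with the depth of the library 0.20. The part of these in the relation was not tested. In the other sets of secondary-antral oocytes the r of Izumo1r with Astl was -0.38 by DRaqL-SMART-Seq v4 (n = 9), -0.52 in formalin-fixed sections (n = 7), -0.14 in same-mouse captured oocytes (n = 8) and 0.18 by SMART-Seq v4 (n = 11). Without the 2 farthest oocytes of each set these became -0.37 (n = 7), -0.21 (n = 5), -0.63 (n = 6) and -0.41 (n = 9), so that the values of the last 3 sets moved with the 2 oocytes left out. Over the 14 dissociated oocytes, labelled grown, the r was 0.20 (Spearman's rho 0.16), so that the genes did not run opposite there. The 30 points were not spread evenly, since a patch of oocytes with high Izumo1r and low Astl lay apart in the plot, so that the r describes this arrangement and not a graded relation. All of these points share the reads of a library between both genes, and cells of unnamed animals, so that the values are descriptions.

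The serial sections allow differences between oocytes to be put beside differences between sections. The SD between oocytes is that of the mean of each pair, which still holds part of the spread between sections. Izumo1r ranged from 397 to 898 RPM over the 8 oocytes by the mean of their pair of sections (median 650). Its SD was 0.21 within and 0.38 between oocytes on the log2 scale, with an r between sections of 0.75. Astl ranged from 367 to 1248 RPM (median 740), with SDs of 0.24 within and 0.60 between oocytes and an r of 0.83. Cd9 ranged from 74.4 to 200.4 RPM (median 110), with SDs of 0.41 and 0.44 and an r of 0.40. The spread of Cd9 within oocytes rested on 2 of the 8, oocyte 4 with 70.8 and 148 RPM in its sections and oocyte 9 with 277 and 124 RPM. The median absolute difference between sections was lowest for Cd9, at 0.14 on the log2 scale, against 0.21 for Izumo1r and 0.28 for Astl. Across the 8 oocytes Izumo1r and Astl ran opposite (r = -0.74, and -0.55 for the 6 left without the 2 farthest). Oocyte 1 had the lowest Izumo1r (397 RPM) with the highest Astl (1248 RPM), and oocyte 7 the highest Izumo1r (898 RPM) with 517 RPM of Astl. Between the sections of an oocyte the genes moved together: in 7 of 7 oocytes whose sections differed by more than 0.01 in log2 level, the section with more Izumo1r had more Astl, while oocyte 1 was tied in Izumo1r, and the r over all 8 of the section differences was 0.95. For Izumo1r and Cd9 the section differences had the same sign in 2 of the same 7 oocytes.

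**Figure D3:**
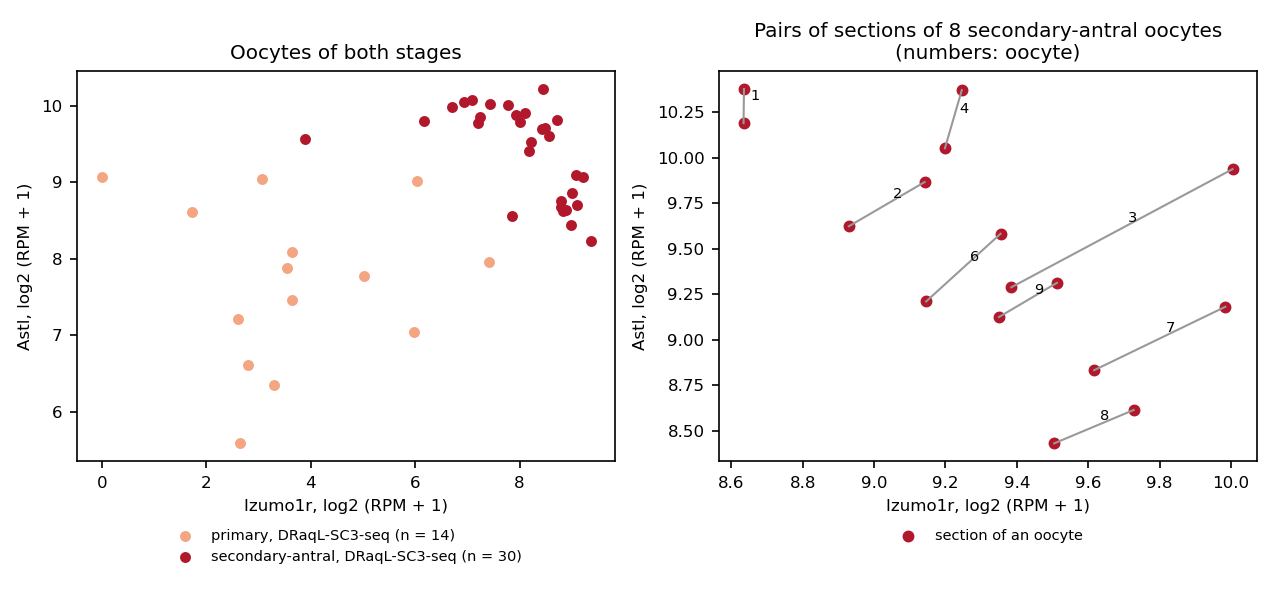
Izumo1r against Astl, both as log2 (RPM + 1). Left, 14 primary and 30 secondary-antral oocytes by DRaqL-SC3-seq, where the later stage lies up and to the right but holds a patch with high Izumo1r and lower Astl (r = -0.53). Right, both sections of 8 oocytes joined by lines, which rise in 7 oocytes, with oocyte 1 tied in Izumo1r, while the oocytes as a whole fall from upper left to lower right (r = -0.74).

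Oocytes of the same mouse were compared after dissociation and after LCM. Izumo1r had 274 to 554 RPM (median 361) in 14 dissociated oocytes and 8.31 to 299 RPM (median 177) in 8 captured oocytes, a difference of 1.88, with 7 of 8 captured oocytes below the lowest dissociated one. Cd9 had medians of 186 RPM (86.2 to 400.7) and 118 RPM (26.3 to 185), a difference of 1.11. Astl had medians of 288 RPM (163 to 402) and 848 RPM (357 to 1084), a difference of -1.44, with 7 captured oocytes above the highest dissociated one. Among all genes, 20.2% were higher and 20% lower by more than 1 in dissociated oocytes, so that such a difference was not rare. Izumo1r and Astl differed in opposite directions, and the ratio of Izumo1r to Astl reads was 0.164 in captured and 1.46 in dissociated oocytes. The labels give the captured oocytes a follicle stage and the dissociated ones the word grown. Sections of oocytes are set against whole ones, and only the dissociated oocytes had been handled with the cAMP analog. Stage, isolation, the cAMP analog, the part of the cell sampled and chemistry thus cannot be told apart here.

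Granulosa cells around the oocyte were then examined for the 3 transcripts. All 3 genes were higher in oocytes in each of the 6 data sets that hold both cell types. The oocyte minus granulosa difference of Astl was 7.45 by DRaqL-SC3-seq, 7.76 by SMART-Seq v4, 7.05 by DRaqL-SMART-Seq v4, 6.77 in formalin-fixed sections, 8.32 in same-mouse captured cells and 7.17 in dissociated cells. That of Izumo1r was 4.33 to 6.76 and that of Cd9 3.95 to 5.78. A difference past 1 upward was found for 80.8%, 81.8%, 58.9%, 57.7%, 73.8% and 70.5% of genes in the same order, so that the 3 genes passing it is not particular to them. The differences of Astl were exceeded by 0.176% to 1.67% of genes and those of Cd9 by 2.73% to 17.3%. For Astl no granulosa cell reached the lowest oocyte in 4 of the 6 data sets, the exceptions being DRaqL-SC3-seq (6 of 57 cells) and SMART-Seq v4 (3 of 34 cells).

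Reads of Izumo1r in single granulosa cells were few and uneven, and Cd9 was detectable in more of the cells in some data sets. By DRaqL-Smart-seq2, Cd9 was detectable (above 0 reads) in 12 of 15 neighboring and 17 of 19 non-neighboring cells. By LCM-seq it was detectable in 12 of 17 and 11 of 20 cells. From the DRaqL-SC3-seq cells, 3 whose profiles were mixed with those of oocytes had been set apart, so that the 57 used here had already been filtered on oocyte transcripts. In the dissociated cells the study also reports profiles mixed with those of oocytes, more often in cells attached to oocytes, and these cells are among those used here. Such filtering is not stated for the other single-cell data sets. Shares and levels of oocyte transcripts are thus not on equal terms between data sets. By DRaqL-SC3-seq, Izumo1r was detectable in 13 of 31 neighboring cells (41.9%, 95% exact binomial interval 24.5% to 60.9%) and in 10 of 26 non-neighboring cells (38.5%, 20.2% to 59.4%), at median depths of 585673 and 544072 reads. With at least 5 reads required, the share over all 57 cells fell to 10.5%. The summed level of Izumo1r was 23.02 RPM in neighboring and 2.21 RPM in non-neighboring cells. Of the 441 reads in neighboring cells, 323 were in a single cell with 528 RPM of Izumo1r, 729 RPM of Astl and 17175 RPM of summed oocyte markers. By LCM-seq, Izumo1r was detectable in 9 of 17 neighboring cells and in 0 of 20 non-neighboring cells, where 8238801 reads without one allow up to 0.364 RPM. By DRaqL-Smart-seq2 it was detectable in 9 of 15 and 4 of 19 cells. Summed oocyte markers had medians of 1568 RPM in neighboring and 15.2 RPM in non-neighboring cells by LCM-seq, and 812 and 15.1 RPM by DRaqL-Smart-seq2. As a possible background, Izumo1, a gene of the sperm side, was detectable in 0 of 57 granulosa cells by DRaqL-SC3-seq. It was detectable in 8 of 34 by SMART-Seq v4, 15 of 39 by DRaqL-SMART-Seq v4 and 12 of 24 in formalin-fixed sections. Izumo1r was detectable in 4 of 34, 2 of 39 and 11 of 24 cells of the last 3 data sets, shares of which none exceeded that of Izumo1. Whether the reads of Izumo1 are background was not tested, and its share is not given here for LCM-seq or DRaqL-Smart-seq2. The reads of Izumo1r were not spread evenly, since 2 neighboring cells by SMART-Seq v4 held 223 and 31 of the 255 reads in neighboring cells (361 and 192 RPM).

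In neighboring cells by DRaqL-SC3-seq and SMART-Seq v4 the reads of Izumo1r and Astl were mostly in cells with more of other oocyte transcripts. Granulosa cells whose summed oocyte markers exceeded 10% of the median of the oocytes, a limit chosen after the data were seen, were 13 of 31 neighboring and 3 of 26 non-neighboring cells by DRaqL-SC3-seq. In the 13 neighboring cells the summed level was 49.6 RPM of Izumo1r and 120 RPM of Astl, against 1.42 and 0.378 RPM in the other 18. Without the cell that held the most reads of both genes, chosen after its values were seen, the sums of the remaining 12 were 12.9 and 73.3 RPM. By SMART-Seq v4 the same split gave 155 and 178 RPM in 4 neighboring cells, and no read of either gene in the other 13. Without the cell with 223 reads of Izumo1r and 214 reads of Astl, the remaining 3 had 31.1 and 76.7 RPM. The oocyte markers and the genes did not always go together: of these 4 cells, the one with the most oocyte markers (13740 RPM) had 0 reads of Izumo1r, and the 2 non-neighboring SMART-Seq v4 cells over the limit had 0 reads of Izumo1r and Astl. In the 3 non-neighboring DRaqL-SC3-seq cells over the limit the summed level was 5.52 RPM of Izumo1r and 32.5 RPM of Astl, of which 1 cell held 49 of 53 reads of Astl. Cd9 behaved otherwise by DRaqL-SC3-seq: 3.61 RPM in the 13 cells and 3.03 RPM in the other 18. Its highest granulosa cell there (427 RPM) was a non-neighboring one with 124 RPM of oocyte markers. Among other neighboring cells, Cd9 was higher in those over the limit in formalin-fixed sections (31.9 against 14.3 RPM) and after dissociation (123 against 25.2 RPM). It was lower in them by SMART-Seq v4 (1.21 against 10.5 RPM), DRaqL-SMART-Seq v4 (10.4 against 14.1 RPM) and in same-mouse captured cells (1.15 against 12.3 RPM). Part of Cd9 in granulosa cells was thus read where oocyte markers were low. In formalin-fixed neighboring cells Izumo1r was not mostly in cells high in oocyte markers, with 5.79 RPM in the 3 such cells and 19.2 RPM in the other 9. In neighboring cells by DRaqL-SMART-Seq v4, Astl had 2.98 RPM in the 2 cells high in oocyte markers and 5.63 RPM in the other 18. The part of oocyte RNA in these values was not tested.

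A few cells set the sums elsewhere. In same-mouse captured cells, 1 non-neighboring cell had 1115 reads of Izumo1r among 111229 (10024 RPM), with 8.99 RPM each of Cd9 and Astl, which is more Izumo1r than in any oocyte. Without it and the other cells high in oocyte markers, the summed level of non-neighboring cells was 0.659 RPM. In dissociated cells, 1 neighboring cell had 1549 RPM of Izumo1r, no read of Astl and 385 RPM of summed oocyte markers. Dissociated granulosa cells had been sequenced in pools with or without oocytes, and Izumo1r was detectable in 9 of 20 cells of the former and 2 of 15 of the latter. Astl was detectable in 7 of 20 and 0 of 15 cells. Cd9 was detectable in 12 of 20 and 7 of 15 cells. In captured cells the counts of Izumo1r went the other way, with 4 of 22 cells in pools with oocytes and 17 of 48 in pools without. Those of Cd9 were 8 of 22 and 21 of 48. Astl was detectable in 12 of 22 captured cells in pools with oocytes (54.5%) and in 20 of 48 in pools without (41.7%). Summed oocyte markers had medians of 256 and 14.5 RPM in dissociated cells of pools with and without oocytes, and 211 and 248 RPM in captured cells. The part of pool sharing in these values was not tested.

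The pools of about 10 granulosa cells gave replicate libraries, 7 neighboring and 7 non-neighboring. Nothing in the labels ties a pool to an animal, so that p-values measure the spread between these libraries. Astl was higher in neighboring pools, with no overlap. The 7 neighboring pools had 7.53, 9.25, 5.77, 26.2, 25.0, 34.1 and 17.7 RPM of Astl. The 7 non-neighboring pools had 0.480, 1.80, 0.131, 0, 0.176, 0.262 and 0 RPM. Every neighboring pool exceeded every non-neighboring one, as for 0.472% of the genes with 10 or more reads in these pools (neighboring higher). The mean difference was 3.60 on the log2 scale (exact permutation test, two-sided, p = 0.000583, the smallest that 3432 splits allow). In the fit over 9704 genes the log2 fold change was 5.27 (SE 1.25; edgeR, adjusted p = 0.0752), which missed the threshold of 0.05, and DESeq2 gave an adjusted p of 0.000467.

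Izumo1r was uneven among neighboring pools, with 0, 3.61, 2.06, 217, 193, 137 and 16.4 RPM. The non-neighboring pools had 1.20, 12.4, 0, 0.121, 0, 0.787 and 0 RPM. The groups overlapped, with 4 neighboring pools above the highest non-neighboring one. The mean difference was 3.50 on the log2 scale (exact permutation test, two-sided, p = 0.0233), and the fit gave 5.13 (SE 1.77; edgeR, adjusted p = 0.703), which missed the threshold, while DESeq2 gave an adjusted p of 0.0250. Cd9 had 22.1, 31.6, 7.01, 0, 20.3, 53.7 and 7.10 RPM in neighboring pools. It had 0.240, 102.9, 0, 8.11, 20.1, 0.262 and 15.9 RPM in non-neighboring pools. The groups of Cd9 overlapped throughout, with a fitted log2 fold change of -0.23 (SE 1.41; edgeR, adjusted p = 0.998), a mean log2 difference of 0.96 in the other direction and an exact permutation p of 0.436. Without the pools numbered 2, of which the non-neighboring one had 102.9 RPM of Cd9, the fitted value turned to 1.29, that of Astl was 6.60 (edgeR, adjusted p = 0.0486), and Izumo1r did not pass the filter on low counts.

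**Figure D4:**
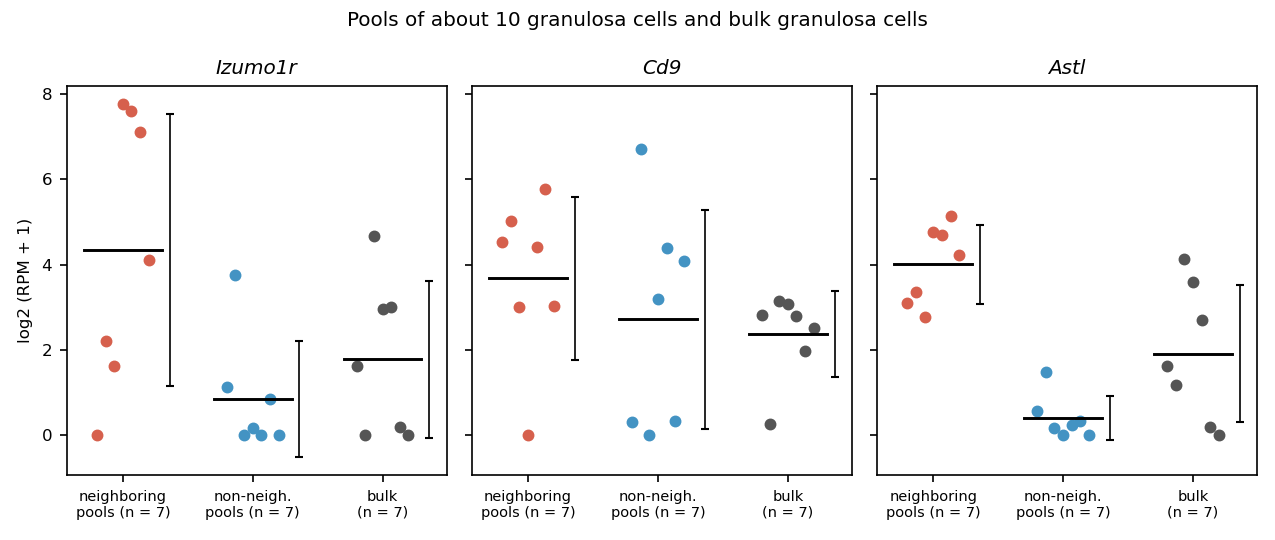
Izumo1r, Cd9 and Astl, as log2 (RPM + 1), in 7 neighboring pools, 7 non-neighboring pools and 7 bulk granulosa samples, with 1 point per library, a horizontal bar at the mean and a vertical bar of 1 SD on either side. Astl does not overlap between the pools, Izumo1r reaches 217 RPM in neighboring pools and 12.4 RPM in non-neighboring ones, and Cd9 overlaps throughout.

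By edgeR 0.453% of genes (44 of 9704) passed the threshold between the pools, all higher in neighboring ones, and by DESeq2 1.22%. None of Izumo1r, Cd9 and Astl was among the 44. Without the pools numbered 3, 4, 5, 6 and 7 in turn, edgeR called 27, 6, 5, 10 and 22 genes. Of 12 oocyte markers 9 passed, all higher, among them Gdf9 (log2 fold change 6.28), Bcl2l10 (6.30) and Zp3 (6.23) (edgeR, adjusted p = 0.0197, 0.0205 and 0.0217). Of the lists of egg surface, cortical granule and egg activation genes, 0 members passed by edgeR, with median log2 fold changes of -0.17, -0.11 and -0.17, against -0.01 for all genes. Summed oocyte markers were 852 to 8517 RPM in neighboring pools and 1.09 to 140 RPM in non-neighboring pools, and the 3 pools with the most (6623, 8517 and 6966 RPM) were the 3 highest in Izumo1r and in Astl. Summed theca and stroma markers were 0 to 1346 RPM in neighboring pools (median 0.412) and 1.21 to 3625 RPM in non-neighboring pools (median 440). Summed blood and endothelium markers were 1.80 to 20.4 RPM and 0.999 to 2469 RPM (medians 6.67 and 8.75). Non-neighboring pool 2, with the most Cd9, held 2189 RPM of theca and stroma markers. The part of these cell types in the differences was not tested. Per 1000 oocyte marker reads, Izumo1r had 21.96 reads in neighboring pools (95% exact Poisson interval 21.2 to 22.8) and 26.4 (20.6 to 33.3) in non-neighboring pools, and Astl had 4.93 (4.56 to 5.32) and 5.21 (2.85 to 8.74). Cd9 had 5.18 (4.80 to 5.58) and 298 (277 to 319). The non-neighboring values rest on pool 2, which held 62 of 71 reads of Izumo1r, 9 of 14 of Astl and 515 of 800 of Cd9. Without it they were 4.53 for Izumo1r, 2.52 for Astl and 143.5 for Cd9, a leave-out chosen after the data were seen. In serial sections of oocytes, by the same protocol, the values were 12.9 for Izumo1r, 16.1 for Astl and 2.37 for Cd9. The ratio of Izumo1r to Astl reads was 4.46 over the neighboring pools together, but 0, 0.390, 0.357, 8.29, 7.71, 4.03 and 0.925 in the 7 pools. In the 8 serially sectioned oocytes it ran from 0.318 to 2.14. Pools 4, 5 and 6 lay above all of these oocytes, and the other 4 pools lay within or below their range.

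The 7 bulk granulosa samples, which share the 14 pools as their comparison, held 2.08, 0, 24.4, 6.79, 7.09, 0.134 and 0 RPM of Izumo1r. They held 2.08, 1.24, 16.4, 11.1, 5.51, 0.134 and 0 RPM of Astl and 6.07, 0.207, 7.81, 7.38, 5.99, 2.95 and 4.70 RPM of Cd9. The bulk sample with the most Izumo1r also had the most Astl. Against the pools the log2 fold changes were -2.84 for Izumo1r (SE 1.69; edgeR, adjusted p = 0.938), -2.00 for Cd9 (SE 1.19; edgeR, adjusted p = 0.938) and -0.79 for Astl (SE 1.26; edgeR, adjusted p = 0.991), beside a median of -0.21 for all genes. None passed the threshold, and by edgeR 0% of 11917 genes did (0 genes, with 689 at an unadjusted p under 0.05, and 0.65%, 76 of 11685, by DESeq2). Without bulk samples 2 and 4 in turn, edgeR called 5 and 7 genes. As the study describes it, 4 bulk samples came from early antral follicles, with the oocyte in the section removed first. The other bulk samples came from follicles without an oocyte in the section, of unidentified stage. Both kinds were fitted here as the same group. Summed oocyte markers ran from 3.92 to 1691 RPM over the 7 samples, and the part of follicle kind in these levels was not tested. Fewer cells next to the oocyte and less RNA per cell cannot be told apart in bulk samples.

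Libraries with Y-shaped adapters, which keep reads from along the transcript, showed which exons the oocyte reads came from, in 5 secondary-antral oocytes and 10 mESCs. The mESC libraries labelled fresh and LCM are pooled here. Izumo1r had 0 reads in every exon in all 10 mESCs. In oocytes, its last exon at chr9:14900023-14900624 had 1143, 1040, 158, 699 and 691 reads. Further downstream the gene model has 2 last exons with reads, at chr9:14893049-14893350 with 13 reads and at chr9:14885814-14886344 with 72 reads, so that the first of the 3 held 97.8% of their reads (95% exact binomial interval 97.3% to 98.2%). The first exon had 70 reads, all of them overlapping its shortest annotated form. Oocyte reads of Izumo1r thus lay mostly in the last exon nearest to its start, and whether the window used for 3′ counting reached every annotated end was not tested.

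The last exon of Astl, at chr2:127356341-127357651, had 1920, 5075, 5186, 3689 and 5005 reads in the 5 oocytes and 4 reads in the 10 mESCs. Its upstream first exon, at chr2:127338639-127338885, had 0 reads. The downstream first exon, at chr2:127341630-127341751, whose preceding sequence with 3 E-boxes is printed above, had 5 reads in 2 oocytes. Coverage fell steeply away from the 3′ end, so that so few reads do not place the start. The last exon of Cd9, at chr6:125460266-125460726, had 169 to 520 reads in oocytes and 173 to 815 in mESCs, and its first exon at chr6:125494574-125494791 had 91 and 150 reads in all. The annotated exons at chr6:125474733-125474821 and chr6:125478175-125478302 had 0 reads in both cell types. Reads across splice junctions numbered 824 for Izumo1r (22 to 242 per oocyte), 853 for Cd9 (41 to 247) and from 5 to 41 per oocyte for Astl, and in mESCs 0, 2343 (47 to 479) and 0.

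**Figure D5:**
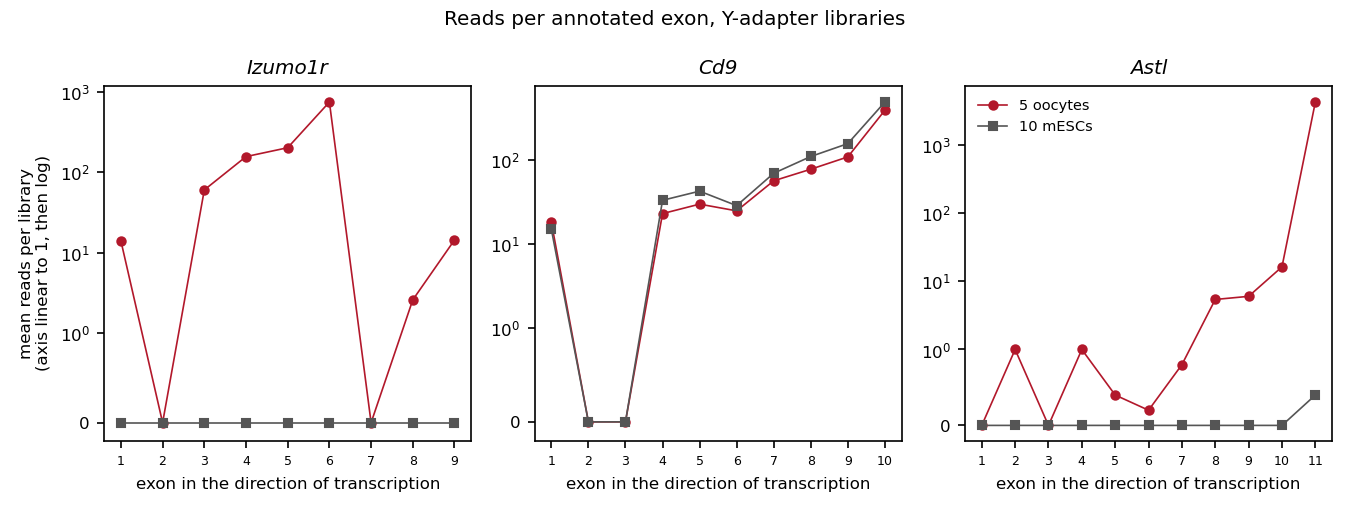
Mean reads per library in each exon of Izumo1r, Cd9 and Astl, in the direction of transcription, in 5 oocytes and 10 mESCs with Y-shaped adapters. The y axis is linear to 1 and logarithmic above, and of overlapping exons the longest is shown. Izumo1r peaks at its sixth exon rather than its last and is at 0 in mESCs, Astl is concentrated in its last exon, and Cd9 rises toward its last exon in both cell types.

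Cd9 has a processed copy, Cd9-ps, at chr7:41682658-41683307, to which reads can be split. It held between 6.86% and 25.4% of the reads of both in the groups whose tables list it. In SMART-Seq v4 the share was 12.3% in primary and 13.8% in secondary-antral oocytes, and in formalin-fixed sections 21.2% and 21.4%, so that the split was near equal between stages, and it was 7.83% and 6.86% by DRaqL-SMART-Seq v4. The copy was not analysed in the DRaqL-SC3-seq oocytes, and its part in the direction of Cd9 there was not tested.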

How the data were processed

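RNA was measured in 577 libraries, of which 562 are in gene tables. The deposited read counts per gene were made by the authors, per the submitters' processing notes with fastp 0.20.0, cutadapt 1.16, HISAT2 2.1.0 and HTSeq 0.10.0 on GRCm38, within 10 kb of annotated 3′ ends. Exon and junction counts of the other 15 libraries were made with featureCounts 2.0.1, with reads of several matches counted. RPM used the sum over 22060 protein-coding genes as the total of a library; tables of 45905 genes hold other genes too, left out here. Oocytes were compared where the mean log2 (RPM + 1) was at least 4 in either group. Pools and bulk samples were fitted on counts with edgeR 4.0.16 (TMM, filterByExpr, quasi-likelihood, Benjamini-Hochberg over all genes, threshold 0.05), with DESeq2 1.42.0 as an alternative, in R 4.3.3, after tests on simulated data. Other values used python 3.11.15, numpy 2.4.6, pandas 2.3.3 and scipy 1.17.1. Intervals are 95%, and a count of 0 allows 3 reads. Named genes were the 3 members, the 5 genes with the highest r for each, and the 2 to 4 detected genes of each list with the largest stage difference. The members and lists were chosen with earlier results of these data known. Markers of theca and stroma, blood and endothelium, and pluripotent cells were summed too: in oocytes of the 4 staged data sets, theca and stroma had medians of 0 to 18.3 RPM and blood and endothelium of 11.9 to 38.4 RPM. In the pools, none of the tested markers of granulosa (6 of 10), theca and stroma (1 of 6), blood and endothelium (1 of 7) or pluripotent cells (2 of 6) passed by edgeR. The other markers were not tested there.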

Additional observations from a re-analysis of the deposited data

Results flagged for a closer look

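Of 27 checks of a group of 4 to 10 libraries for a library far from the others, 5 found one. The limits give about 1 in 20 for normally distributed values, which levels at or near 0 are not. The checks also share libraries between genes, so that the 5 cannot be measured against that rate. In formalin-fixed secondary-antral oocytes, the same oocyte was lowest in Cd9 with 15.9 RPM (3 of 188906 reads; the others had 110.9 to 199 RPM) and in Astl with 127 RPM (the others had 406 to 840 RPM). In bulk granulosa, replicate 2 had 0.207 RPM of Cd9, below 2.95 to 7.81 RPM in the others. Among non-neighboring pools, pool 2 was highest in Izumo1r with 12.4 RPM (the others 0 to 1.20 RPM) and in Astl with 1.80 RPM (the others 0 to 0.480 RPM). It also had the most Cd9 (102.9 RPM), with summed markers of 140 RPM for oocytes, 2189 RPM for theca and stroma and 2814 RPM for granulosa. Non-neighboring pool 1, with 3625 RPM of theca and stroma markers, had 0.240 RPM of Cd9. The part of other cell types in these values was not tested.

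The 3 granulosa cells by DRaqL-SC3-seq that were deposited apart from the 57, as cells with profiles mixed with those of oocytes, entered no comparison. Of these, 1 non-neighboring cell had 87.3 RPM of Izumo1r and 64.05 RPM of Astl, with 2932 RPM of summed oocyte markers. The neighboring cell had 102.4 RPM of Izumo1r and 54.4 RPM of Astl, with 10829 RPM of summed oocyte markers. The median of summed oocyte markers over the 57 cells was 519 RPM, and both levels of Izumo1r exceeded 96.5% of these cells. The third cell, a non-neighboring one, had 1474 RPM of summed oocyte markers with 1 read of Izumo1r (1.64 RPM) and none of Cd9 or Astl.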

How the results depend on the processing

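Stage differences kept their direction under all alternatives run, and 12 values moved by more than 1 SD. Scaled to spike-ins, Izumo1r, Cd9 and Astl differed by 6.03, 2.53 and 3.34 (SMART-Seq v4), 7.43, 3.68 and 4.98 (DRaqL-SMART-Seq v4) and 5.69, 2.76 and 3.63 (formalin-fixed). Without oocytes high in granulosa markers, Izumo1r and Astl differed by 6.10 and 2.52 by SMART-Seq v4. From summed counts, Izumo1r differed by 3.14 by DRaqL-SMART-Seq v4. Without each formalin-fixed primary oocyte in turn, Izumo1r differed by 3.91 to 4.70, Cd9 by 0.52 to 1.24 and Astl by 1.49 to 2.09.

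Oocyte minus granulosa differences kept their direction, and 33 of 129 values moved by over 1 SD, mostly with the pseudocount. With 0.1 RPM, Izumo1r was 9.19 (SMART-Seq v4), 9.20 (DRaqL-SMART-Seq v4) and 8.03 (same-mouse LCM), Cd9 was 7.73 (DRaqL-SC3-seq) and 8.09 (SMART-Seq v4), and Astl was 9.60, 10.6, 9.87, 8.89, 10.3 and 9.84 in the 6 data sets. With 10 RPM, Izumo1r was 3.35, 3.71, 3.89 and 3.15 (DRaqL-SC3-seq, both SMART-Seq v4 sets, same-mouse LCM), Cd9 was 3.18, 3.34 and 3.22 (the first 3 of these), and Astl was 4.98, 4.84, 4.22, 4.44, 5.87 and 4.43. From summed counts, Izumo1r was 1.70 (same-mouse LCM) and 2.99 (dissociated), Cd9 2.87 (DRaqL-SC3-seq) and 2.98 (SMART-Seq v4), and Astl 4.14, 5.19 and 4.95 (DRaqL-SC3-seq, SMART-Seq v4, formalin-fixed). From medians, Izumo1r was 8.65 by DRaqL-SMART-Seq v4 and 6.80 in formalin-fixed sections. Requiring 5 reads lowered shares of granulosa cells, for example to 10.5% for Izumo1r by DRaqL-SC3-seq. Thinned to a common depth, 9.77% of same-mouse captured granulosa cells had Izumo1r. Leaving out granulosa cells high in oocyte markers was chosen after the data were seen.

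In the pools, DESeq2 called 1.22% of genes, against 0.453% by edgeR (Izumo1r 5.18, Astl 5.38, both then past the threshold). Leaving out pools of 1 number in turn gave 0.0512% to 0.353% (5 to 34 genes). Astl was then 4.93 to 6.60, Cd9 -0.94 to 1.29 and Izumo1r 4.45 to 5.29, with no value without number 2, where it did not pass the filter. The pool numbers were not taken as pairs. Same-numbered deviations correlated at -0.0005 to 0.18 (median 0.06) and those of other numbers at -0.122 to 0.133 (median -0.013). Of the 7 pools, 3 correlated best with their own number, so that these values do not settle whether the numbers pair the pools. With the number as a replicate block, edgeR called 0.0309% of genes (3 genes) and Cd9 turned to 1.14 (edgeR, adjusted p = 1). In bulk samples, upper-quartile scaling called 0.378% of genes (45), DESeq2 0.65% (76), no filter on low counts 1.78% (357) and the neighboring pools alone 0.0267% (3), against 0 by edgeR. Leaving out a bulk sample gave 0 to 0.0577% (0 to 7 genes), with Izumo1r at -3.94 to -2.62, Cd9 at -2.13 to -1.79 and Astl at -1.44 to -0.57. Against non-neighboring pools alone Izumo1r did not pass the filter. The causes were not tested. Single cells without a named animal, from data sets that can share an ovary, carry no estimate of variation between mice, and low reads in granulosa cells limit shares more than levels in oocytes.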
